A study of Rattus norvegicus with 9 samples.

Results

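The comparison of cells kept with energized structured water (ESW) against untreated cells asked which transcripts differ after the treatment. Its members were all 3 libraries titled ESW and all 3 titled Control, 6 of the 9 RNA-seq libraries of the study, chosen by title. All of them came from H9c2(2-1), an established wild-type myoblast line derived from the embryonic heart of a BD1X rat, and were made from total RNA. Control cells received no treatment and stayed in normal growth medium (DMEM with serum and antibiotics). ESW cells grew for 72 h in medium holding the water at a 0.01 dilution, which was exchanged every 24 h. No duration or exchange schedule is given for Control, so the added water and the exchange of medium cannot be told apart in this comparison. The other 3 libraries, CW, came from cells given control water in the same dilution and schedule, and their values are given only where they bear on a result. The labels do not say whether replicates were separate cultures, so the p-values measure the spread between these libraries, which may be technical. A single immortal line stands here for heart muscle cells, and only 1 dilution and 1 duration were measured.

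H9c2 cells proliferate as mononucleated myoblasts, secrete collagen-rich matrix and switch on muscle genes when serum is withdrawn. The genes described below belong to programmes that such cells regulate through transcription. The lysosome degrades material delivered by endocytosis and autophagy, and transcription factors of the TFEB family bind a short E-box element in many of its genes. NRF2, a transcription factor released from its inhibitor KEAP1 by electrophiles and oxidants, drives genes of glutathione, NADPH, haem and iron metabolism. The SREBP factors drive cholesterol and fatty acid synthesis when sterols are low in the endoplasmic reticulum.

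Estimated reads on RefSeq transcripts numbered 36193439 to 48574618 in the Control and 36103041 to 43114613 in the ESW libraries. The first principal component of the 6 libraries held 29.9% of the variance and placed ESW (2.50, 12.2 and 27.1) above Control (-0.698, -18.4 and -22.8). Control replicate 1 stood apart from the other Control libraries and nearest to ESW on it, and on the second component (20.7%) Control replicate 1 (-20.9) and ESW replicate 1 (27.1) lay at opposite ends. The total count is therefore given with and without Control replicate 1, and the count of a list is given without it where that moved the count by over 1.5 times. Against markers of cell types, 9 of 10 fibroblast and 8 of 8 smooth muscle markers reached 1 CPM (counts scaled to the same TMM-corrected library total in all libraries) in all 6 libraries, but only 4 of 10 skeletal myoblast and 2 of 10 cardiomyocyte markers did. The myoblast regulator gene Myf5 had no read in any of the 6 libraries and the heart genes Nppa and Myh6 were at or near 0, so the labelled type, myoblast, rested on Myod1, Myog, Cdh15 and Des. Endothelial, blood and epithelial lists had 1 marker each at that level, and no marker of these 3 lists was called.

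The difference between ESW and Control was broad and shallow. The filter on low counts passed 14706 of 36856 genes, which were tested. Of these, 1183 were called different at an adjusted p under 0.05, which is 8.04% of them, and 700 (4.76%) were higher and 483 (3.28%) lower. Adjusted p-values in this section come from edgeR's quasi-likelihood test with Benjamini-Hochberg adjustment over all genes tested, and "called" means past that threshold. The called higher genes had a median ratio of 1.148 and the called lower genes a median ratio of 0.838. In 823 called genes (69.6%) the change was less than 1.2-fold, whereas 13 genes were at least 1.5-fold higher and 44 at least 1.5-fold lower. The 3 ESW libraries lay wholly above or below the 3 Control libraries for 1134 of the called genes, against 25.6% of all tested genes. The calls were made on these same libraries, so that separation follows largely from the selection and adds no support. Without Control replicate 1 the test called 1544 genes (782 higher, 762 lower), 1023 of them among the 1183, and all 1183 kept their sign. Without Control replicate 2, Control replicate 3 or ESW replicate 3 it called 534, 590 and 394 genes, and with offsets for the average effective transcript length, which differs between libraries with fragment length and isoform use, it called 440. The median of all tested genes was -0.01 on the log2 scale, and list medians below are set beside it. The median differed by class of gene. For protein-coding genes whose most abundant transcript was under 1000 bases it was -0.07.

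The gene with the largest rise among those at 10 CPM or more was Myh1, which encodes a myosin motor of fast skeletal fibres. Its levels were 50.4, 46.9 and 46.7 CPM in Control and 66.3, 80.2 and 76.1 CPM in ESW for replicates 1, 2 and 3, the order used for all values that follow, so the lowest ESW library stood well above the highest Control library. Hapln4, a link protein that holds hyaluronan to proteoglycans, had 11.2, 11.2 and 12.1 CPM in Control and 16.5, 16.8 and 15.9 CPM in ESW, with a difference of 0.51 on the log2 scale (SE 0.07, adjusted p = 0.000418). Ugt1a6, an enzyme that conjugates phenols to glucuronic acid and whose gene shares exons with its family neighbours, had 18.7, 19.5 and 17 CPM in Control and 26, 25.2 and 23.5 CPM in ESW, with a difference of 0.44 on the log2 scale (SE 0.07, adjusted p = 0.00138). In neither gene did the groups overlap. The rise of Tgfb1, a growth factor that drives matrix synthesis, was seen in every ESW library at 115, 118 and 113 CPM against 88, 91.8 and 84 CPM in Control. Clu, the secreted chaperone clusterin, had 70.8, 73.6 and 65.9 CPM in Control and 92.6, 89.9 and 89.9 CPM in ESW and a difference of 0.37 on the log2 scale (SE 0.04, adjusted p = 9.21e-05). Slc52a2, a riboflavin transporter, and Rbm38, an RNA-binding protein, had log2 fold changes of 0.39 (SE 0.07) and 0.38 (SE 0.08), and C3h11orf96 had one of 0.41 (SE 0.07). With length offsets the adjusted p of Rbm38 was 0.127 and that of C3h11orf96 0.0683, past the threshold in neither.

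**Figure D1:**
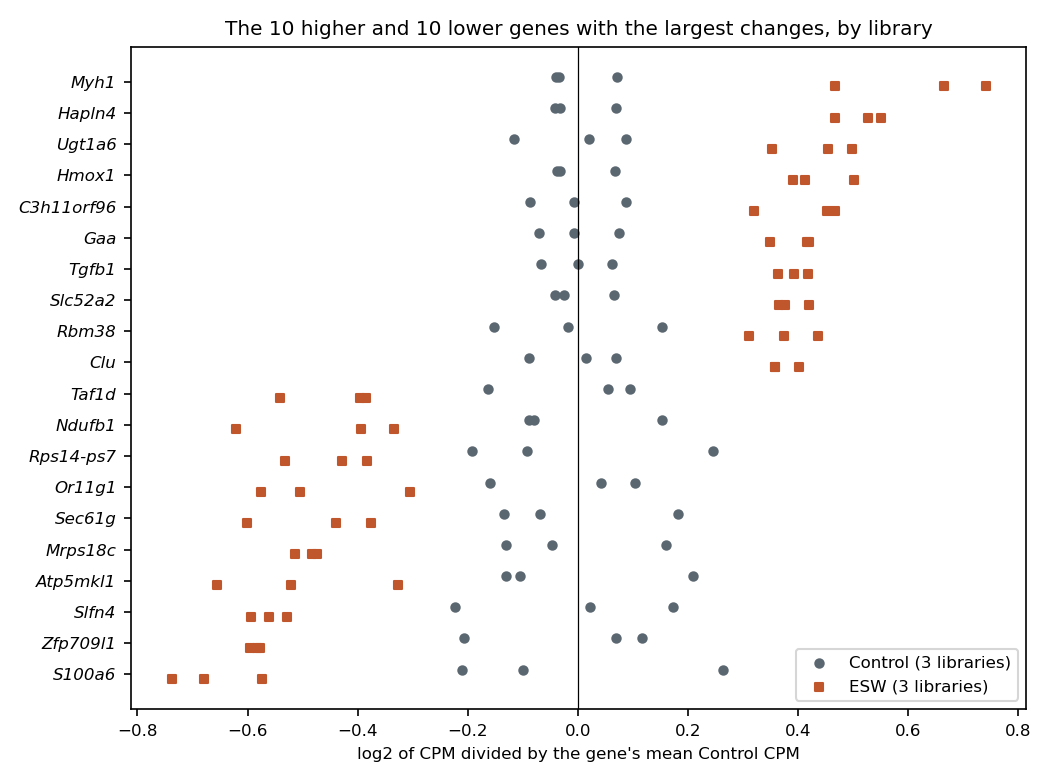
Level of 20 leading genes, 10 per direction (mean of at least 10 CPM, groups not overlapping), as log2 of CPM divided by the gene's mean Control CPM; circles are the 3 Control and squares the 3 ESW libraries. The mean shift is largest to the right in Myh1 and to the left in S100a6, though replicate 1 of ESW lies further out in some other genes, and in every gene shown the groups are apart because the genes were chosen so.

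Among the genes with the largest falls, S100a6, a small calcium-binding protein of proliferating cells, had 527, 569 and 732 CPM in Control and 409, 381 and 365 CPM in ESW, with a difference of -0.66 on the log2 scale (SE 0.09, adjusted p = 0.000418). The Control libraries of S100a6 differed among themselves by more than the ESW libraries did, and the highest ESW library was still below the lowest Control library. Slfn4, a Schlafen family gene, had 16.3, 21.5 and 19.3 CPM in Control and 12.9, 12.6 and 13.2 CPM in ESW, with a difference of -0.56 on the log2 scale (SE 0.09, adjusted p = 0.000794). Zfp709l1, a zinc finger gene, fell by 0.59 on the log2 scale with nearly equal ESW libraries of 14, 13.9 and 14 CPM. Sec61g, a subunit of the channel that takes proteins into the endoplasmic reticulum, had 153, 160.3 and 191 CPM in Control and 129.6, 124 and 111 CPM in ESW (log2 fold change -0.47, adjusted p = 0.000465). Mrps18c of the mitochondrial ribosome and Ndufb1 of respiratory complex I had log2 fold changes of -0.49 (SE 0.08) and -0.45 (SE 0.08). Atp5mkl1, Or11g1, an olfactory receptor gene, and Taf1d, a factor of RNA polymerase I transcription, had values of -0.50, -0.45 and -0.44. The pseudogene Rps14-ps7 (-0.45) can share reads with the ribosomal protein gene it copies, and Atp5mkl1 with its parent gene, so these values are uncertain. With length offsets Zfp709l1, Or11g1, Rps14-ps7 and Taf1d had adjusted p-values of 0.0521, 0.0661, 0.0677 and 0.0845.

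Called genes that differed by 1 or more on the log2 scale numbered 26 (0.177% of those tested), 6 higher and 20 lower. Of these, 24 had a mean under 2 CPM in both groups and 15 carry only systematic names. Hist1h2an, a replication-dependent histone gene, had the highest level of the 26, 4.08, 4.75 and 6.79 CPM in Control and 2.53, 2.42 and 2.43 CPM in ESW. Ttn, the giant sarcomere spring titin, had 0.357, 0.678 and 0.449 CPM in Control and 1.13, 1.02 and 1.26 CPM in ESW, and its CW libraries, at 1.48, 1.35 and 0.824 CPM, overlapped ESW. Evi2a was lower in ESW, at 0.422, 0.261 and 0.4 CPM against 0.968, 1.03 and 0.816 CPM in Control, and Hmgn5, a nucleosome-binding protein gene, at 0, 0.214 and 0.4 CPM against 1.38, 0.569 and 1.47 CPM. Gpc3, a membrane heparan sulphate proteoglycan, was read at 0.127, 1 and 0.877 CPM in Control and 0.0844, 0 and 0.0571 CPM in ESW, and Gapdhl10 at 0.0255, 2.55 and 1.61 CPM in Control and 0.141, 0.0712 and 0.257 CPM in ESW, so in Gapdhl10 Control replicate 1 was as low as the ESW libraries and in Gpc3 only just above them. Rpl8l1 and Rps12l2, copies of ribosomal protein genes with which reads can be shared, were among the 6 higher genes, as was Ugt1a7c. C5l1 was lower, with means of 0.0864 and 0.403 CPM in ESW and Control. The 15 genes with systematic names were 1 higher and 14 lower. DESeq2 gave no adjusted p for any of the 26, since its filter on mean counts left them out.

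Members of 41 lists of genes by pathway or complex were then read together, each list beside the median of all genes tested (-0.01). In 28 lists the median log2 fold change lay above it. The highest medians were those of lysosomal hydrolases (0.18), cholesterol synthesis and uptake (0.15), basement membrane and elastic fibres (0.15), NRF2 targets (0.14) and fatty acid synthesis (0.13), and in these 5 lists no gene was called lower. The lowest medians were those of mitosis (-0.11), histones (-0.11), splicing factors (-0.11) and cytosolic ribosomal proteins (-0.10), and in these 4 lists no gene was called higher. The share of called members was at or below the 8.04% of all tested genes in 7 lists: sarcomere (8%), mitochondrial ribosomal proteins (7.89%), immediate early genes (6.67%), the YAP and TEAD pathway (6.45%), endoplasmic reticulum chaperones (5.13%), the ATF4 response (3.33%) and myogenic regulators (0%). Among all tested genes the share called also rose with level, from 0.93% under 1 CPM to 22.4% at 100 CPM or more. The lists were not matched for level. The members and lists were chosen with results of these libraries known, so the counts describe the lists and are not independent evidence for them.

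**Figure D2:**
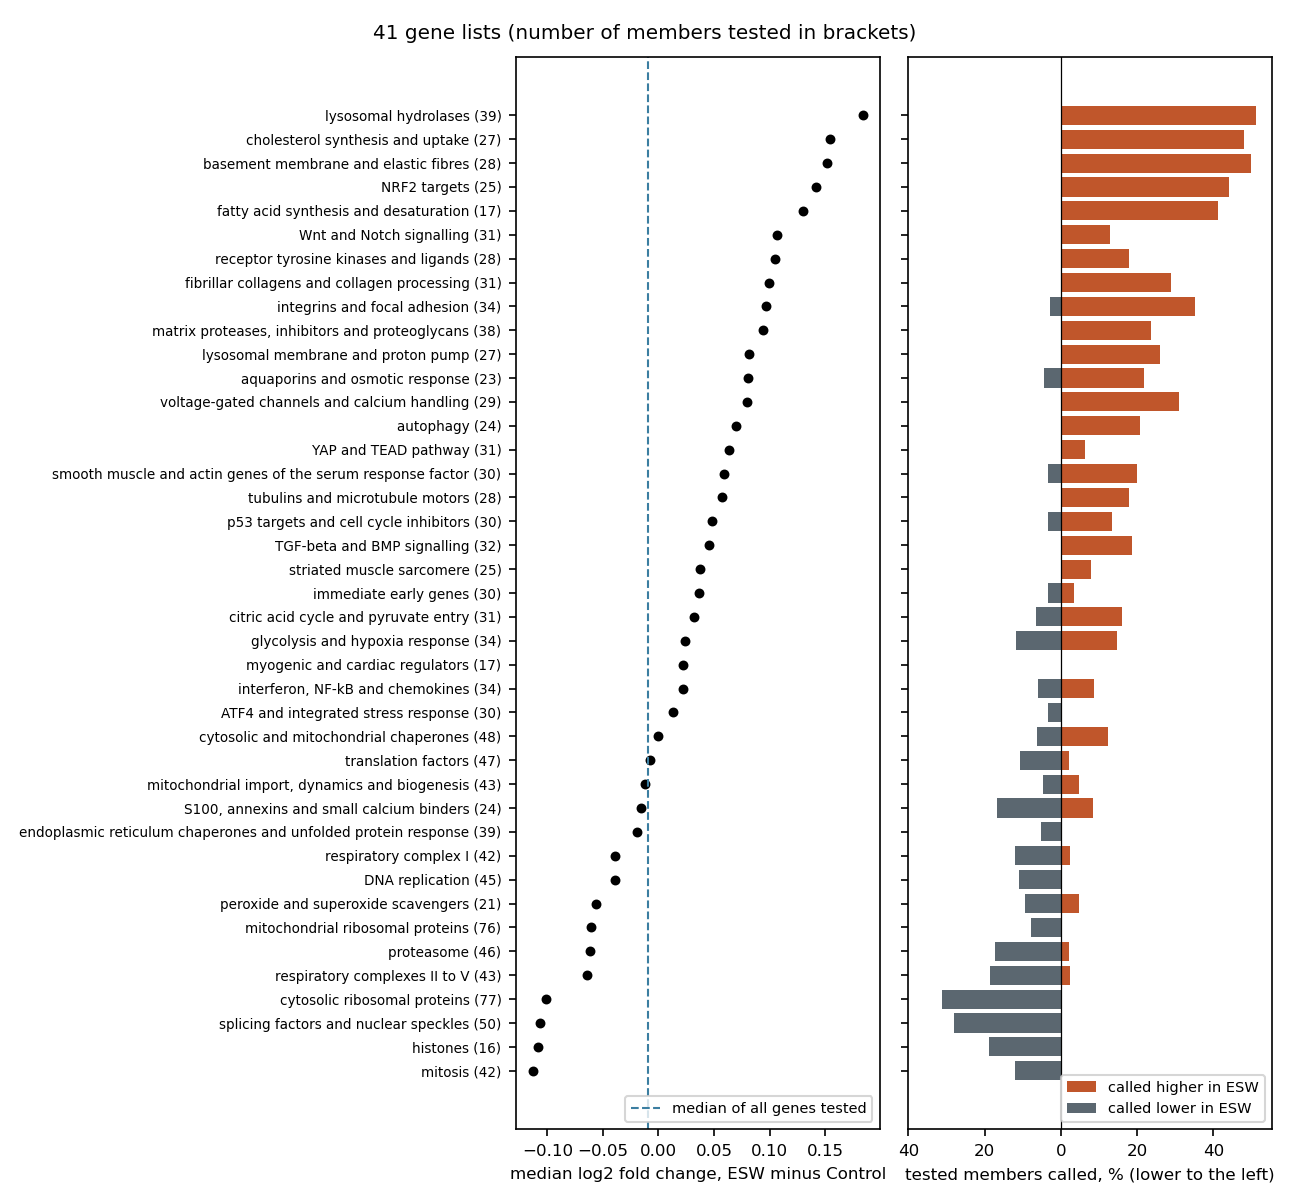
Left, median log2 fold change (ESW minus Control) of the tested members of 41 lists, with the median of all tested genes as a dashed line; right, percent of tested members called higher (to the right) and lower (to the left). Lists at the top have calls in the higher direction alone, led by lysosomal hydrolases with 20 of 39 members, and those at the bottom in the lower direction alone, such as cytosolic ribosomal proteins with 24 of 77.

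Genes of the lysosome made up the list with the largest share of calls. Of 39 lysosomal hydrolases tested, 20 rose, 0 fell and 19 were not called, and the 3 ESW libraries lay apart from Control for 31, while 25.6% of all tested genes did so. Gaa, the acid glucosidase that degrades glycogen in lysosomes, had 165, 156 and 149 CPM in Control and 200.1, 209 and 210.0 CPM in ESW, with a difference of 0.40 on the log2 scale (SE 0.04, adjusted p = 3.31e-05). Ctsd, the aspartic protease cathepsin D, had 451, 438 and 432 CPM in Control and 523, 516 and 525 CPM in ESW, with a log2 fold change of 0.24 (SE 0.03). In both genes the lowest ESW library was above the highest Control library. Man2b2, a mannosidase, rose by 0.23 (adjusted p = 0.000953). Ctsl, the cysteine protease cathepsin L, and Gusb, beta-glucuronidase, were not called, at -0.03 (adjusted p = 0.644) and -0.02 (adjusted p = 0.845). With length offsets 16 hydrolases were called, all higher, and without Control replicate 1 the number was 22.

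Of 27 genes of the lysosomal membrane and the proton pump, 7 rose, 0 fell and 20 were not called (median 0.08). Grn, the precursor of the granulins, had 419.6, 389 and 398 CPM in Control and 491, 502 and 491 CPM in ESW, with a difference of 0.30 on the log2 scale (SE 0.04, adjusted p = 0.000156). The membrane part of the pump that acidifies the lysosome was represented among them by Atp6v0c at 0.26 (adjusted p = 0.000668), Atp6v0a1 at 0.22 (adjusted p = 0.00213) and Atp6v0d1 at 0.17 (adjusted p = 0.00778). With length offsets 6 of the 7 were called, without Control replicate 1 the number was 9, and in both fits all were higher. Lamp1, an abundant glycoprotein of the lysosomal membrane, had 663, 622 and 619 CPM in Control and 701, 709.8 and 714 CPM in ESW, and Igf2r, the receptor that sorts mannose 6-phosphate enzymes, had 333, 312 and 337 CPM in Control and 348, 359 and 387 CPM in ESW. The relative of Lamp1, Lamp2, was not called (log2 fold change 0.00, adjusted p = 0.993), nor was the regulator gene Tfeb (log2 fold change 0.06, adjusted p = 0.811). In autophagy, 5 of 24 genes rose, 0 fell and 19 were not called (median 0.07). They were the cargo receptor Sqstm1 with 399, 416 and 405 CPM in Control and 470.1, 458 and 461 CPM in ESW (log2 fold change 0.19, adjusted p = 0.00292), the vesicle protein Atg9a (0.20), the membrane tags Map1lc3a and Map1lc3b (0.15 and 0.12) and the kinase Ulk1 (0.19). None of these 5 was called with length offsets, where the lowest adjusted p was that of Sqstm1 at 0.057, and without Control replicate 1 the number was 3.

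The E-box element of lysosomal genes was searched as GTCACGTG on either strand in windows of 300 bases, from 250 before to 50 after the annotated start, given by RefSeq for build GRCr8. Such a window was at hand for 12028 of the 14706 tested genes, and 432 of these (3.59%) held the 8 letters. In the 2 lysosomal lists 11 of 49 windows (22.4%) held them, 7 of 19 among members called higher and 4 of 30 among those not called. Among all genes called higher the share was 4.90%. A match describes the letters of a window and is not a bound site. The windows of 4 called genes are shown because they carry the element, with each match in capitals: Gaa at chr10:105028105-105028404 on the plus strand with 1 match, Ctsd at chr1:206968772-206969071 on the minus strand with 2, Lamp1 at chr16:83075014-83075313 on the minus strand with 4, and Igf2r at chr1:50526628-50526927 on the plus strand with 4. Overlapping matches were counted separately.
Gaa: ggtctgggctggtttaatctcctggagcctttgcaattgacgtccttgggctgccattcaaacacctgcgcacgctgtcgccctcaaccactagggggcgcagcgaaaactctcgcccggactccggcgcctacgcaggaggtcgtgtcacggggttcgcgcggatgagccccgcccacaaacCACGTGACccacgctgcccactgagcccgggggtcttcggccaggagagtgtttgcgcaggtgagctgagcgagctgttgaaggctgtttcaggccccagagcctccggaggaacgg
Ctsd: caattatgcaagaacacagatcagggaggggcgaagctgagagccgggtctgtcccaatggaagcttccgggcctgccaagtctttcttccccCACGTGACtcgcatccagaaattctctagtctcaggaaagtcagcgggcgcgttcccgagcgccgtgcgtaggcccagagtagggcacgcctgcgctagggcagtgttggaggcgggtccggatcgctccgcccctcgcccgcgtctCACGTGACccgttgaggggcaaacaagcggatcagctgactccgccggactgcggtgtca
Lamp1: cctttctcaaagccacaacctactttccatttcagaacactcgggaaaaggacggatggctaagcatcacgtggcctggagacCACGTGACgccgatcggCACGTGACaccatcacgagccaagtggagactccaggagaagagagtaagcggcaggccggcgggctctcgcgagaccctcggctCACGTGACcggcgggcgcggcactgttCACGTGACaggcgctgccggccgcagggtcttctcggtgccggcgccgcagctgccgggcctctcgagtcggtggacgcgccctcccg
Igf2r: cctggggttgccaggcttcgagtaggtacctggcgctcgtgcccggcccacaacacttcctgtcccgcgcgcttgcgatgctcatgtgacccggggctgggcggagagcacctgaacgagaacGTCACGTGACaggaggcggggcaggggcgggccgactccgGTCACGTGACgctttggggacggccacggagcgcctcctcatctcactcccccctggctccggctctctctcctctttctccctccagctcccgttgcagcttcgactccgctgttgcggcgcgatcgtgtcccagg

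The windows differ in where the element lies. Gaa has its match at 67 bases before the start and Ctsd its first at 157 before, while in Lamp1 and Igf2r the first of several lies 167 and 127 bases before the start. Lamp1 and Igf2r have 4 matches each, which are separate in Lamp1 and lie in overlapping pairs in Igf2r. Their log2 fold changes were 0.16 (SE 0.04) and 0.16 (SE 0.04), below that of Gaa with 1 match, 0.40 (SE 0.04). With length offsets Lamp1 was not called (adjusted p = 0.0613) and Igf2r was (adjusted p = 0.042). Mcoln1, a lysosomal calcium channel gene with 2 matches, was not called (log2 fold change 0.08, adjusted p = 0.333).

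Of 25 NRF2 targets tested, 11 rose, 0 fell and 14 were not called, with a median of 0.14. Hmox1, the haem-degrading enzyme, had 58.4, 62.8 and 58.6 CPM in Control and 84.9, 79.8 and 78.6 CPM in ESW, and Ftl1, the light chain of the iron store ferritin, had 2355, 2519.8 and 2274 CPM in Control and 3277, 2944 and 3006 CPM in ESW. Both genes stood apart in every library, and the levels of Ftl1 in CW lay between the groups at 2685, 2619.6 and 2638 CPM. Pgd, an enzyme that makes NADPH in the pentose phosphate pathway, had 178, 183 and 175 CPM in Control and 217, 209 and 201 CPM in ESW. Genes of glutathione synthesis gave no call among those named here: Gclm, the regulatory subunit of glutamate-cysteine ligase, was at -0.15 (adjusted p = 0.28), and the cystine transporter gene Slc7a11 at -0.16 (adjusted p = 0.301), neither called. Txn1, Srxn1 and Prdx1 were not called either (-0.15, 0.11 and -0.05). The core of the antioxidant response element, TGACNNNGC on either strand, was in 3 of 20 windows of the list (15%) and in 13.8% of all windows.

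The enzymes that remove superoxide and peroxide did not rise as a group: of 21 tested, 1 rose, 2 fell and 18 were not called (median -0.06). The 1 that rose was Sod3, the secreted superoxide dismutase, with 57.8, 60.7 and 56 CPM in Control and 74, 73.8 and 75.9 CPM in ESW (log2 fold change 0.36, adjusted p = 0.00088). The 2 that fell, Gpx8 and Prdx4, act in the endoplasmic reticulum. Gpx8 had 173, 181 and 201 CPM in Control and 151, 157 and 151 CPM in ESW and Prdx4 112, 109 and 125 CPM in Control and 98.4, 94 and 97.9 CPM in ESW, with log2 fold changes of -0.27 (SE 0.05) and -0.26 (SE 0.05). Gpx8 was not called with length offsets (adjusted p = 0.109), and without Control replicate 1 the list had 2 higher and 4 lower genes. Sod1 of the cytosol and Sod2 of the mitochondrion had 224, 235 and 243 CPM in Control and 243, 224 and 222 CPM in ESW for the former and 50.4, 52.5 and 48.9 CPM in Control and 52.2, 49.4 and 52.1 CPM in ESW for the latter, with groups that overlapped.

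Genes of cholesterol synthesis and uptake rose in 13 of 27 cases, with 0 lower and 14 not called (median 0.15). Lss, which closes the sterol rings, had 82.2, 85.3 and 92.9 CPM in Control and 113, 105 and 102 CPM in ESW. Srebf2, the gene of the master regulator SREBP2, had 138, 140.5 and 136 CPM in Control and 164, 156 and 158 CPM in ESW, and Mvd, which makes isopentenyl diphosphate, had 40.1, 41.2 and 42.3 CPM in Control and 50.3, 48.9 and 48.4 CPM in ESW. The groups were apart in each of these 3 genes, with log2 fold changes of 0.30 (SE 0.05), 0.21 (SE 0.04) and 0.25 (SE 0.05). Hmgcs1, which acts early in the pathway, was not called (log2 fold change 0.12, adjusted p = 0.0888), and Idi1 and Fdps stood at 0.00 and 0.00. In CW the levels of Lss overlapped those of ESW at 98.3, 108 and 98.4 CPM, with a log2 fold change of 0.23 against Control. With length offsets 4 members of the list were called in place of 13. In fatty acid synthesis and desaturation 7 of 17 genes rose, 0 fell and 10 were not called (median 0.13). Acss2, which makes acetyl-CoA from acetate, had 32.5, 32.6 and 31.6 CPM in Control and 42.2, 40.5 and 36.8 CPM in ESW (log2 fold change 0.31, adjusted p = 0.00271), and the desaturase gene Scd2 had 1054, 937 and 986 CPM in Control and 1105, 1167 and 1094 CPM in ESW (log2 fold change 0.18, adjusted p = 0.0133). Acly, which makes acetyl-CoA from citrate, and Mgll, a lipase of monoacylglycerols, rose by 0.17 and 0.28. The number called with length offsets was 3. The letters TCACNCCAC of the sterol element were in 0 of 19 and 0 of 14 windows of the 2 lists and in 1.22% of all windows.

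Matrix genes formed a second large block of higher genes. Of 31 genes of fibrillar collagens and collagen processing, 9 rose, 0 fell and 22 were not called (median 0.10). Col1a1, the main chain of type I collagen, had 32261, 30220.1 and 31516 CPM in Control and 37351, 38467 and 39191 CPM in ESW, with a difference of 0.29 on the log2 scale (SE 0.03, adjusted p = 9.54e-05), and Col1a2, its partner chain, had 29469, 27647 and 28211 CPM in Control and 32555, 32887 and 33824 CPM in ESW (log2 fold change 0.22, adjusted p = 0.000805). Plod3, a hydroxylase of collagen lysines, and Pcolce, an enhancer of procollagen cleavage, had log2 fold changes of 0.27 (SE 0.04) and 0.21 (SE 0.04). Of 28 genes of basement membrane and elastic fibres, 14 rose, 0 fell and 14 were not called (median 0.15). The laminin chain gene Lamb2 had 271, 266 and 274 CPM in Control and 338, 336 and 351 CPM in ESW, and Ltbp3, which holds latent TGF-beta in the matrix, had 114, 110.3 and 117 CPM in Control and 136, 140.4 and 147 CPM in ESW. Fbln5, needed for elastic fibre assembly, had 533, 504 and 515 CPM in Control and 616, 611 and 627 CPM in ESW, and Ltbp2 1989, 1876 and 2002 CPM in Control and 2285, 2274 and 2478 CPM in ESW. None of these 4 genes had overlapping groups, and their log2 fold changes were 0.34 (SE 0.04), 0.31 (SE 0.04), 0.26 (SE 0.03) and 0.26 (SE 0.04). Fn1, fibronectin, was not called (log2 fold change 0.10, adjusted p = 0.219). With length offsets 8 genes of each of these 2 lists were called.

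Among 38 matrix proteases, inhibitors and proteoglycans 9 rose, 0 fell and 29 were not called (median 0.09). Mmp2, gelatinase A, had 2.27, 2.66 and 1.65 CPM in Control and 3.63, 4.56 and 3.86 CPM in ESW (log2 fold change 0.89, adjusted p = 0.00506), and Mmp19 102, 107 and 101 CPM in Control and 116, 117 and 126 CPM in ESW (log2 fold change 0.21, adjusted p = 0.00619). Thbs1, thrombospondin 1, an activator of TGF-beta, had 8996, 8510.5 and 8475 CPM in Control and 9813, 9392 and 10049.9 CPM in ESW (log2 fold change 0.17, adjusted p = 0.0109), and the protease gene Adamts7 rose by 0.20. With length offsets 4 of the 9 were called. Of the fibroblast markers 6 of 10 were called, and their summed level was 77031.9 to 82083.3 CPM in Control and 91699.2 to 95037.8 CPM in ESW, with Pdgfra, a defining marker, under 1 CPM in all 6 libraries. The collagens Col1a1, Col1a2 and Col3a1 made up most of that sum, so it largely repeats the collagen values above. Of the other fibroblast markers Pdgfrb rose by 0.22 and Vim by 0.11, S100a4 fell, and Thy1 and Lum were not called (0.04 and 0.06). In bulk RNA a change in the share of cells of a type and a change in RNA per cell cannot be told apart, and the part of such a change in the matrix result was not tested.

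Of 32 genes of TGF-beta and BMP signalling 6 rose, 0 fell and 26 were not called (median 0.05). Besides the ligand gene Tgfb1 they included the co-receptor Eng with 48.3, 45.7 and 47.3 CPM in Control and 55.4, 55.1 and 57.9 CPM in ESW (log2 fold change 0.25, adjusted p = 0.00327), the inhibitory SMAD gene Smad6 (log2 fold change 0.26, adjusted p = 0.0115) and the activin-binding protein gene Fstl3 (log2 fold change 0.21, adjusted p = 0.0209). The other ligands, Tgfb2 and Tgfb3, and the receptors Tgfbr1 and Tgfbr2 were not called (0.11, 0.04, -0.09 and 0.13). With length offsets 2 members were called. Of 34 genes of integrins and focal adhesions 12 rose, 1 fell and 21 were not called (median 0.10). The laminin receptor chains Itga7 and Itga3 had 191, 185 and 182 CPM in Control and 219.5, 231 and 223 CPM in ESW for the former and 129, 131 and 127 CPM in Control and 145, 155 and 165 CPM in ESW for the latter, and the chains Itgb5 and Itga11, of receptors for vitronectin and collagen, rose by 0.20 and 0.24. With length offsets 6 of the 12 were called, among them these 4. The shared chain Itgb1 was not called (log2 fold change 0.08, adjusted p = 0.229), and the 1 that fell was the adaptor gene Lims1 (log2 fold change -0.16, adjusted p = 0.0121), which was not called with length offsets (adjusted p = 0.054). Among 28 receptor tyrosine kinases and their ligands 5 rose, 0 fell and 23 were not called (median 0.10). Gas6, the ligand of the AXL family, had 379.6, 364 and 363 CPM in Control and 444, 428 and 450.0 CPM in ESW (log2 fold change 0.26, adjusted p = 0.000465), and Igfbp4, which binds insulin-like growth factors, 68.3, 72 and 66.3 CPM in Control and 86.6, 87.8 and 82.3 CPM in ESW (log2 fold change 0.31, adjusted p = 0.000465). Pdgfrb, the PDGF receptor of mesenchymal cells, had 781, 723 and 759 CPM in Control and 846, 873 and 909 CPM in ESW (log2 fold change 0.22, adjusted p = 0.00213), and the growth factors Vegfb and Vegfc rose by 0.22 and 0.21, of which neither was called with length offsets. In Wnt and Notch signalling 4 of 31 genes, the receptors Fzd2, Fzd1, Lrp5 and Notch3, rose by 0.24, 0.19, 0.25 and 0.20, and the number called with length offsets was 0.

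Sarcomere genes and myogenic and cardiac regulators were called at about the share of all tested genes or below it. Of 25 sarcomere genes tested Myh1 and Ttn rose, 0 fell and 23 were not called (median 0.04), and of 17 myogenic and cardiac regulators 0 were called in either direction (median 0.02). Ttn, near 1 CPM, lost its call with length offsets (adjusted p = 0.0639) and without Control replicate 1 (adjusted p = 0.0709), where another sarcomere gene was called lower. Myh2, a fast myosin next in kind to Myh1, had 0.815, 0.461 and 0.693 CPM in Control and 1.07, 1.19 and 1.31 CPM in ESW and was not called (log2 fold change 0.85, adjusted p = 0.0933), and the skeletal actin gene Acta1 had 25.1, 23.2 and 24.5 CPM in Control and 30.2, 28.2 and 25.3 CPM in ESW (log2 fold change 0.20, adjusted p = 0.0695). Myod1, the regulator that commits cells to skeletal muscle, had 8.36, 8.05 and 7.87 CPM in Control and 9.65, 9.33 and 11.2 CPM in ESW (log2 fold change 0.31, adjusted p = 0.0581), and Myog, which acts in differentiation, 2.32, 3.58 and 2.67 CPM in Control and 2.39, 2.23 and 2.97 CPM in ESW (log2 fold change -0.17, adjusted p = 0.64). The heart transcription factor gene Gata4 stood at -0.06. In the list of smooth muscle and actin genes 6 of 30 rose, 1 fell and 23 were not called (median 0.06). That was a share of 23.3% called, against 8.04% of all tested genes and 22.4% of those at 100 CPM or more. The called genes of this list named next all lay above 100 CPM. The cytoplasmic actins Actb and Actg1 had 6506, 6687 and 6242 CPM in Control and 8298, 7173 and 7359 CPM in ESW for the former and 3979.7, 3987 and 3853 CPM in Control and 4579, 4316 and 4481 CPM in ESW for the latter, and smooth muscle actin, Acta2, 7864, 7951 and 7975 CPM in Control and 9054, 8830.4 and 8873 CPM in ESW. Their log2 fold changes were 0.23 (SE 0.05), 0.18 (SE 0.03) and 0.17 (SE 0.03), and the reads of actin genes can be shared among their copies. Tagln2, a transgelin, fell by 0.15 on the log2 scale from 1208 to 1088 CPM in the mean, and without Control replicate 1 the list had 2 lower genes.

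Among 29 voltage-gated channels and calcium handling genes 9 rose, 0 fell and 20 were not called (median 0.08). Kcng1, a modifier subunit of potassium channels, had 7.36, 6.72 and 6.24 CPM in Control and 10.3, 10.7 and 9.08 CPM in ESW (log2 fold change 0.57, adjusted p = 0.00346), and Cacna1g, a T-type calcium channel, 8.82, 7.67 and 7.97 CPM in Control and 11.3, 10.8 and 11.9 CPM in ESW (log2 fold change 0.48, adjusted p = 0.00551). Itpr3, which releases calcium from the endoplasmic reticulum, and Piezo1, a channel opened by stretch, rose by 0.20 and 0.18. Cacna1c, the L-type channel of heart muscle, was not called (log2 fold change 0.12, adjusted p = 0.119). Of the 9, 3 were called with length offsets. In the list of S100 proteins, annexins and small calcium binders 2 of 24 rose, 4 fell and 18 were not called (median -0.02), and the 4 that fell were S100a10, S100a6, S100a4 and Anxa1. S100a10, the partner of annexin A2, had 246, 248 and 257 CPM in Control and 196, 199 and 190.3 CPM in ESW, with a difference of -0.36 on the log2 scale (SE 0.04, adjusted p = 3.31e-05). S100a4, a marker of motile fibroblasts, had 545, 599 and 672 CPM in Control and 459.5, 456 and 438 CPM in ESW (log2 fold change -0.42, adjusted p = 0.000507), and Anxa1, a phospholipid-binding annexin, 1317, 1459 and 1476 CPM in Control and 1168, 1149.9 and 1123 CPM in ESW (log2 fold change -0.31, adjusted p = 0.000541). In all 4 the groups were apart and the calls held with length offsets, with adjusted p-values of 0.00424, 0.00535, 0.0198 and 0.0365. Anxa2 itself was not called (log2 fold change -0.10, adjusted p = 0.0994), and the 2 genes that rose were the calpain subunits Capn1 and Capns1 (0.21 and 0.12), of which Capns1 was called neither with length offsets (adjusted p = 0.555) nor without Control replicate 1 (adjusted p = 0.0658).

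Water channels and genes of the osmotic response were listed because the treatment was a water. Of 23 tested 5 rose, 1 fell and 17 were not called (median 0.08). The 1 that fell was Aqp1, the water channel of the plasma membrane, with 92.3, 88.6 and 85.9 CPM in Control and 78.2, 75 and 72.8 CPM in ESW (log2 fold change -0.24, adjusted p = 0.00305). CW libraries of Aqp1 had 79, 85 and 80.03 CPM, between the groups. Slc12a2, a cotransporter of sodium, potassium and chloride, had 91.3, 88.9 and 87.9 CPM in Control and 103, 101 and 98.6 CPM in ESW (log2 fold change 0.18, adjusted p = 0.00872). Slc6a6, the taurine transporter, Atp1b1, a beta subunit of the sodium pump, and Slc38a2, an amino acid transporter, rose by 0.18, 0.14 and 0.12. With length offsets 2 of the 5 that rose, Slc12a2 among them, and Aqp1 were called. Nfat5, the transcription factor of the hypertonic response, and its targets Akr1b1 and Slc5a3 were not called (-0.07, 0.04 and 0.15).

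Among genes of protein synthesis, Eef2 was the only gene of 3 lists that rose. Of 77 cytosolic ribosomal proteins 0 rose, 24 fell and 53 were not called (median -0.10). Rps27a had 446, 460.1 and 467 CPM in Control and 376, 396 and 358 CPM in ESW, and Rpl9 had 379, 406 and 455 CPM in Control and 300.3, 331 and 301 CPM in ESW. The groups were apart in both, a subunit of the small and one of the large ribosomal particle, with log2 fold changes of -0.28 (SE 0.04) and -0.41 (SE 0.06), and Rps25 stood at -0.23 (SE 0.04). Many ribosomal protein genes have near-identical copies in the genome, so reads may be split between them. The median deviation of the list from its Control mean was -0.05, 0.02 and 0.03 in the Control libraries and -0.03, -0.13 and -0.17 in ESW, so ESW replicate 1 lay within the Control range. With length offsets 10 were called, and without Control replicate 1 the number was 33. Of 76 mitochondrial ribosomal proteins 0 rose, 6 fell and 70 were not called (median -0.06), a share of 7.89% against 8.04% of all tested genes, led by Mrps18c with 17.3, 18.4 and 21.2 CPM in Control and 13.6, 13.6 and 13.3 CPM in ESW and by Mrpl15, Mrpl33 and Mrpl12 at -0.31, -0.26 and -0.22. Of 47 translation factors 1 rose, 5 fell and 41 were not called (median -0.01). Eif2s1 and Eif2s2, subunits of the factor that brings initiator tRNA, had 131, 141 and 138 CPM in Control and 112, 118 and 110.4 CPM in ESW for the former and 304, 315 and 336 CPM in Control and 276, 279 and 251.3 CPM in ESW for the latter, Eif3e and Eef1b2 fell by 0.15 and 0.14, Eif4a2 fell by 0.17, and the elongation factor Eef2 rose by 0.12. With length offsets Eif2s1 and Eif3e were the 2 called lower, Eif5b was called higher and Eef2 was not called (adjusted p = 0.226), and without Control replicate 1 the list had 3 higher and 7 lower genes.

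Of 46 proteasome genes 1 rose, 8 fell and 37 were not called (median -0.06). The core subunits Psma6 and Psmb1 had 162, 179 and 188 CPM in Control and 148, 142 and 135 CPM in ESW for the former and 187, 204 and 232 CPM in Control and 172, 161 and 160.2 CPM in ESW for the latter, and the deubiquitinase Psmd14 129, 129 and 133 CPM in Control and 110.3, 117 and 109 CPM in ESW. Psmd2, of the regulatory particle, was the 1 that rose (log2 fold change 0.16, adjusted p = 0.0101). Length offsets left 3 genes of the list lower and 1 higher. The median deviation of the list was -0.02 in ESW replicate 1, within the Control range of -0.04 to 0.02, and -0.08 and -0.11 in ESW replicates 2 and 3. Of 48 cytosolic and mitochondrial chaperones 6 rose, 3 fell and 39 were not called (median 0.00). The small heat shock genes Hspb1 and Hspb7 had 393, 395 and 386 CPM in Control and 476, 456 and 459 CPM in ESW for the former and 63.7, 62.2 and 61.9 CPM in Control and 73.2, 79.7 and 79.8 CPM in ESW for the latter, and their partner Bag3 98.6, 101 and 97.7 CPM in Control and 115, 122 and 124 CPM in ESW. Groups were apart in all 3, with log2 fold changes of 0.24 (SE 0.03), 0.31 (SE 0.04) and 0.28 (SE 0.04). The prefoldin genes Pfdn5 and Pfdn1, which hand actin and tubulin to their folding machine, had -0.40 and -0.28, and the mitochondrial Hspe1 -0.22. Length offsets left 3 chaperone genes higher and 2 lower. The cytosolic Hsp90aa1 was not called (log2 fold change -0.09, adjusted p = 0.133). Of 39 genes of chaperones and the unfolded protein response in the endoplasmic reticulum 0 rose and 2 fell, Sec61g and Selenos (-0.47 and -0.25), and of 30 genes of the ATF4 response 0 rose and 1 fell, Ddit3, with 39.6, 43.4 and 42.9 CPM in Control and 35.2, 35.8 and 32.4 CPM in ESW (log2 fold change -0.28, adjusted p = 0.00331). Ddit3 was not called with length offsets (adjusted p = 0.0502). Without Control replicate 1 the first of these lists had 1 higher and 3 lower genes and the ATF4 list 2 higher and 1 lower. Hspa5, the main chaperone of that compartment, and Atf4 were not called (-0.03 and -0.09).

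Respiratory chain genes were lower where called, with 1 exception in each list. Of 42 complex I genes 1 rose, 5 fell and 36 were not called (median -0.04). Ndufb1 had 23.8, 23.7 and 28 CPM in Control and 19.98, 19.2 and 16.4 CPM in ESW and Ndufa12 95.8, 100.2 and 99.4 CPM in Control and 88.3, 86.4 and 82.2 CPM in ESW, Ndufb8, Ndufa5 and Ndufaf4 had -0.21, -0.18 and -0.24, and Ndufs7 was the 1 that rose (log2 fold change 0.23, adjusted p = 0.0399). Ndufs7 was not called with length offsets (adjusted p = 0.327) or without Control replicate 1 (adjusted p = 0.103). Of 43 genes of complexes II to V 1 rose, 8 fell and 34 were not called (median -0.06). Cox7b, a small subunit of cytochrome c oxidase, had 82.3, 84.9 and 89.7 CPM in Control and 72.1, 67.4 and 66.3 CPM in ESW (log2 fold change -0.32, adjusted p = 0.00088), and the ATP synthase genes Atp5pb, Atp5po and Atp5mk had -0.21, -0.28 and -0.36. Sdha, the flavoprotein of complex II, was the 1 that rose (log2 fold change 0.15, adjusted p = 0.0151). With length offsets 3 genes of each list were called, all lower. The median deviation of ESW replicate 1 was 0.02 in both lists, within the Control range, while ESW replicates 2 and 3 had -0.07 and -0.08 for complex I and -0.08 and -0.07 for complexes II to V. CW overlapped ESW, with -0.07, -0.02 and 0.03 for complex I and -0.07, -0.04 and 0.01 for complexes II to V. The median log2 fold change of ESW against CW was -0.037 for complex I and -0.0099 for complexes II to V. In the citric acid cycle and pyruvate entry 5 of 31 genes rose and 2 fell (median 0.03). Mpc2, of the mitochondrial pyruvate carrier, fell from 63.5 to 53.1 CPM in the mean. Idh1 and Got2, cytosolic isocitrate dehydrogenase and mitochondrial aspartate aminotransferase, rose by 0.20 and 0.17, and Ogdh, Pc and Mdh2 were the others that rose. Of 43 genes of mitochondrial import, dynamics and biogenesis 9.30% were called, near the 8.04% of all tested genes. Polrmt and Tomm40 rose (0.27 and 0.16) and the small import chaperones Timm9 and Timm8b fell (-0.27 and -0.24). With length offsets Timm8b alone of these 4 was called, and without Control replicate 1 the list had 1 higher and 4 lower genes. In glycolysis and the hypoxia response 5 of 34 genes rose and 4 fell: Aldoa and Eno2 had 874, 903 and 869 CPM in Control and 1054, 1009 and 1019.9 CPM in ESW for the former and 126, 118 and 118 CPM in Control and 144, 143 and 141 CPM in ESW for the latter, Gpi, Pkm and Pfkm also rose, Bnip3 and Tpi1 had -0.26 and -0.23, and Kdm3a and Ldha also fell. With length offsets 3 of the 5 higher genes of the citric acid cycle list and 3 of the 5 higher and 2 of the 4 lower genes of the glycolysis list were called.

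Genes of cell division were lower where called. Of 42 mitosis genes 0 rose, 5 fell and 37 were not called (median -0.11). Nuf2, of the kinetochore, had 57.5, 61.1 and 57.5 CPM in Control and 45, 50.7 and 45.7 CPM in ESW (log2 fold change -0.31, adjusted p = 0.00213), and Cks1b, Birc5, Hmmr and Mad2l1 had -0.24, -0.29, -0.24 and -0.20. The proliferation marker Mki67 was not called (log2 fold change -0.11, adjusted p = 0.121), nor was Cdk1 (log2 fold change -0.09, adjusted p = 0.234). Of 45 DNA replication genes 0 rose, 5 fell and 40 were not called (median -0.04), among the 5 the clamp loader Rfc4 with 33.3, 36.2 and 42.2 CPM in Control and 30.7, 28.9 and 28.3 CPM in ESW, the primase Prim1 (-0.24), Ccne2 (-0.32) and Pcna (-0.14). With length offsets 3 genes of each of these 2 lists were called, and without Control replicate 1 the numbers were 6 for mitosis and 9 for replication. The shares called were 11.9% and 11.1%, against 8.04% of all tested genes and 9.36% of those at 10 to 100 CPM. Median log2 fold changes of CW against Control were -0.055 for mitosis and -0.046 for replication, and those of ESW against CW were -0.036 and -0.021. Of 16 genes tested in the list of histones, which also holds the histone mRNA-binding protein gene Slbp, 0 rose and 3 fell, Hist1h2an, H3f3a (-0.19) and Slbp itself (-0.22). Cdkn1a, the cell cycle inhibitor p21, had 137, 138 and 121 CPM in Control and 159, 164 and 164 CPM in ESW, with a difference of 0.30 on the log2 scale (SE 0.05, adjusted p = 0.000859), while the related inhibitor Cdkn1b fell by 0.17 on the log2 scale. They belonged to a list of 30 DNA damage response genes and cell cycle inhibitors in which 4 rose, 1 fell and 25 were not called (median 0.05), with Phlda3 and Ccnd3 at 0.17 and 0.15. With length offsets Cdkn1a and Cdkn1b were the 2 called. Mdm2 and Bax, also in the list, were not called (-0.07 and 0.07). Of 50 splicing factors and nuclear speckle genes 0 rose, 14 fell and 36 were not called (median -0.11). Srsf7, an SR protein, had 125, 133 and 133 CPM in Control and 107, 104 and 101 CPM in ESW, and Pnn, pinin, 69.1, 74.5 and 78.6 CPM in Control and 62.1, 61.6 and 56.2 CPM in ESW, with Lsm3 and Snrpd1 of the small ribonucleoproteins at -0.31 and -0.24. With length offsets 3 of the 14 were called, and without Control replicate 1 the number was 20.

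Of the interferon list 14.7% of genes were called, of the immediate early list 6.67% and of the YAP list 6.45%, against 8.04% of all tested genes. Of 34 interferon, NF-kB and chemokine genes 3 rose, 2 fell and 29 were not called (median 0.02). Il1rl1, the receptor of interleukin 33, had 67.5, 65.5 and 62.9 CPM in Control and 48.5, 52.5 and 50.04 CPM in ESW (log2 fold change -0.37, adjusted p = 0.000157), and the chemokine gene Cxcl12 308, 314 and 307 CPM in Control and 267, 279.6 and 274 CPM in ESW (log2 fold change -0.18, adjusted p = 0.0041). The groups were apart in both, and Tnfrsf1a, Nfkb2 and Rela rose by 0.19, 0.22 and 0.19. With length offsets Il1rl1, Cxcl12 and Nfkb2 were called. In CW Il1rl1 had 55.7, 57.6 and 54.9 CPM, between the groups. Of 30 immediate early genes Jund rose (0.18), the phosphatase gene Dusp6 fell (-0.26) and 28 were not called, Fos and Egr1 among them (-0.27 and -0.14). With length offsets the log2 fold change of Jund was -0.00116 (adjusted p = 0.996), a reversal of sign. Without Control replicate 1 Dusp6 was not called (adjusted p = 0.059), and the list had 2 higher and 0 lower genes. Of 31 genes of the YAP and TEAD pathway Tead3 and Ccn2 rose by 0.17 and 0.14, 0 fell, the number called with length offsets was 0, and without Control replicate 1 the list had 3 higher genes and 1 lower. Of 28 tubulins and microtubule motors 5 rose (Tuba4a, Dctn1, Map6, Map1a and Tubb5, at 0.26, 0.20, 0.17, 0.20 and 0.12) and 0 fell, and with length offsets 2 of them, Tuba4a and Map1a, were called.

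The median deviation of log2 CPM from the Control mean placed each library in each list. For lysosomal hydrolases it was 0.17, 0.14 and 0.19 in ESW, and 0.03 to 0.04 in CW, with Control at 0.03, -0.01 and -0.02. NRF2 targets had 0.13, 0.17 and 0.14 in ESW and 0.01 to 0.07 in CW. For cholesterol synthesis ESW replicate 3 (0.07) lay below CW replicates 1 and 2 (0.08 and 0.12), whereas ESW replicates 1 and 2 had 0.17 and 0.18. Mitosis genes were at -0.14, -0.08 and -0.05 in ESW, with Control replicate 3 at -0.06, so those groups overlapped. CW, at -0.03, -0.09 and -0.05, overlapped ESW as well. The order of ESW libraries differed between lists: replicate 3 was the lowest for ribosomal proteins and splicing factors and replicate 1 for mitosis.

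**Figure D3:**
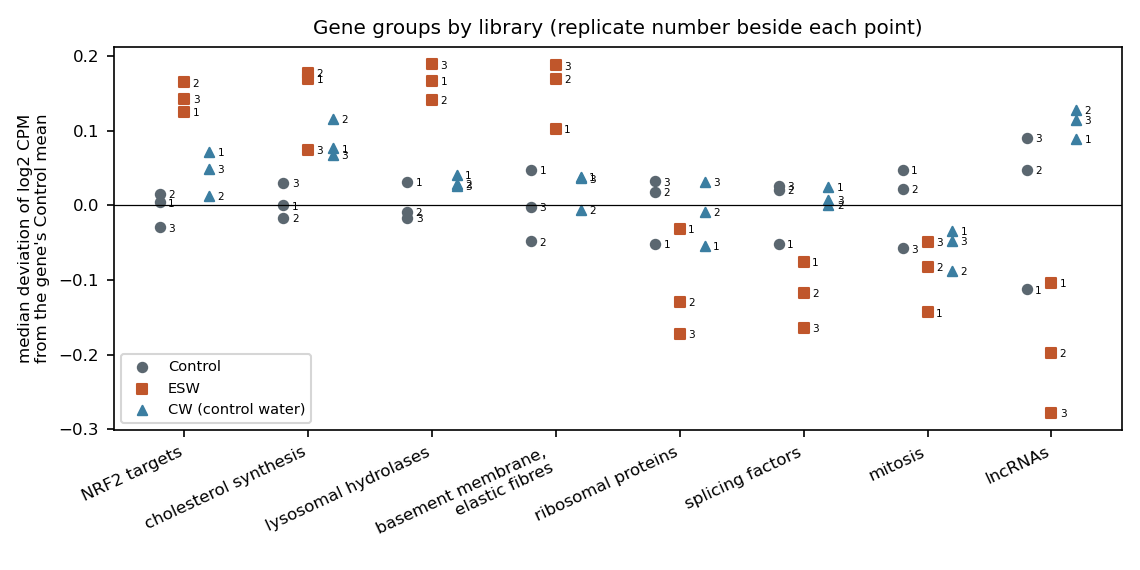
Median deviation of log2 CPM from each gene's Control mean for 7 lists and for lncRNAs, 1 point per library with its replicate number (circles Control, squares ESW, triangles CW). ESW lies above Control and CW for NRF2 targets, lysosomal hydrolases and basement membrane genes, while for ribosomal proteins, mitosis genes and lncRNAs at least 1 ESW library falls within the Control range.

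The called genes differed from the rest in level, transcript length and type, none of which the choice of libraries used. Of 1850 genes at 100 CPM or more, 306 were higher and 109 lower, whereas of 2582 genes under 1 CPM 6 were higher and 18 lower. A higher count also gives a more precise estimate. Among protein-coding genes, those whose most abundant transcript was under 1000 bases had 21 higher and 107 lower calls of 1077 (median -0.07), and those of the class next below the longest 346 and 95 of 4808 (median 0.02). The length classes were set after the data were seen. List medians of mitochondrial ribosomal proteins (-0.06), complex I (-0.04) and complexes II to V (-0.06) were no lower than that of the shortest class. That of cytosolic ribosomal proteins (-0.10) was lower. The part of transcript length in these list medians was not tested beyond the offsets. The median length of the most abundant transcript was 2825 bases for called higher, 1571 for called lower and 2590 for all tested protein-coding genes. The usual difference between transcript length and effective length, which follows the fragment length, was 235, 246 and 244 bases in Control, 250, 245 and 255 in ESW and 248, 260 and 259 in CW, and its part in the length pattern was tested only through the offsets, which left the median of the shortest class at -0.06. Of 1708 long non-coding RNAs 2 were higher and 53 lower, together 3.22%, against 4.76% higher and 3.28% lower among all tested genes. With all levels pooled, lower calls were thus no more frequent among lncRNAs than among all genes, and higher calls were rarer. Most lncRNAs (1114 of 1708) were under 1 CPM, where few genes of any type were called. Of genes at 1 to 10 CPM, 20 of 507 lncRNAs and 36 of 2601 protein-coding genes were called lower. The numbers were 18 of 76 and 281 of 7057 at 10 to 100 CPM. They were 7 of 11 and 101 of 1833 at 100 CPM or more. At each of these levels lower calls were more frequent among lncRNAs. The median of lncRNAs was -0.21 (-0.19 with length offsets and -0.29 without Control replicate 1). They took 0.774, 0.824 and 0.877% of the reads in Control, 0.719, 0.694 and 0.682% in ESW and 0.849, 0.872 and 0.878% in CW, so every ESW library was below every other library. The median deviation of lncRNAs was -0.11 in Control replicate 1 and -0.10 in ESW replicate 1, and the 2 groups overlapped by it. Gas5, an abundant growth-arrest lncRNA that hosts small nucleolar RNAs, had 79.8, 84.5 and 82 CPM in Control and 77.6, 74.8 and 68.6 CPM in ESW (log2 fold change -0.16, adjusted p = 0.0475), though not called with length offsets (adjusted p = 0.496), and the imprinted lncRNA H19 had 660.2, 603 and 580.1 CPM in Control and 582, 629 and 616 CPM in ESW (log2 fold change -0.01, adjusted p = 0.914); both were chosen after their values were seen.

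**Figure D4:**
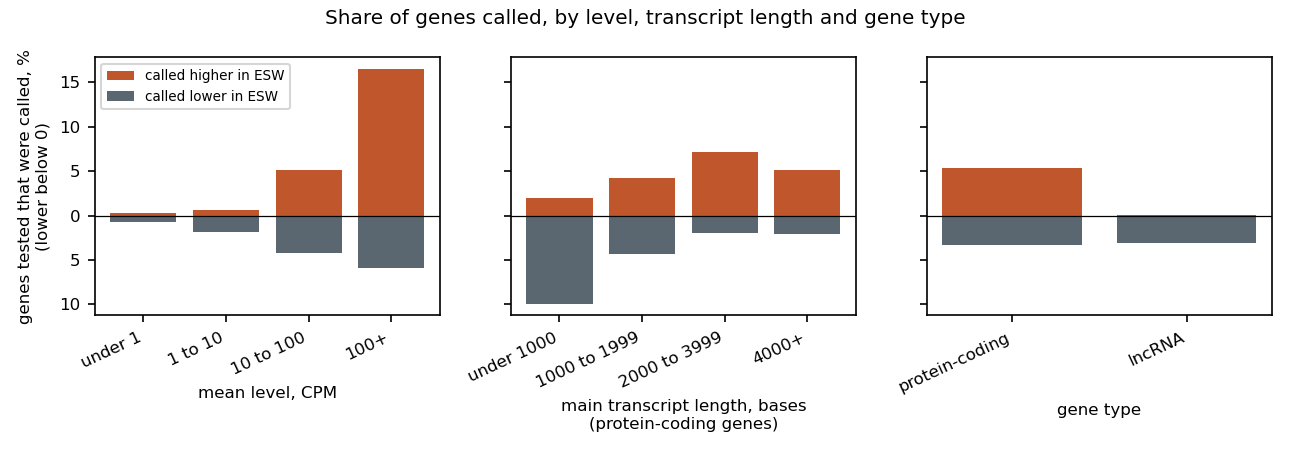
Percent of tested genes called higher (upward) and lower (downward) in ESW by mean CPM, by length of the main transcript of protein-coding genes in bases, and by gene type. Calls in the higher direction grow with the level, and the shortest class and lncRNAs have mainly calls in the lower direction (107 of 1077 and 53 of 1708 genes). For lncRNAs the share called in either direction is 3.22%, while 3.28% of all tested genes were called lower. Most lncRNAs (1114 of 1708) are under 1 CPM, where few genes were called. From 1 CPM upward they were called lower more often than protein-coding genes of the same level.

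At the level of single transcripts the data gave far fewer calls. Of 38609 transcripts tested 9 were called (0.0233%), 8 higher and 1 lower, and 3250 (8.42%) had an unadjusted p under 0.05. The spread between libraries was larger here, with a common biological coefficient of variation over all tested transcripts of 87% against 4.84% for genes. At a mean of 10 CPM or more the contrast was smaller, with a median SE of 0.094 for transcripts and 0.054 for genes. Reads that fit several isoforms are divided among them by estimate. The single lower transcript was that of S100a10, and Hspb1, Ctsd and Slc25a1, the citrate carrier, had 1 tested transcript each. Lamb2 and Fbln5 were called through their main transcript, with shares of the gene's reads of 71.0 and 70.0% (Lamb2) and 96.2 and 96.5% (Fbln5) in Control and ESW. The transcript XM_006236761.5 of Dysf, the membrane repair protein dysferlin, had 70.3, 65.7 and 63.4 CPM in Control and 99.8, 96.2 and 99.1 CPM in ESW, and its share of the gene went from a mean of 32.6 to one of 40.8%. The transcript XM_039089350.2 of Tecpr1, an autophagosome tether, was listed at 0 in all 3 Control libraries and at 9.67, 5.75 and 10.4 CPM in ESW. Of the 1183 called genes 394 had 1 tested transcript and 789 had more, and in 327 of the latter all isoforms had the same sign. In Myh1 the transcript XM_039085434.2 took 38.2, 34.9 and 57.4% of the reads in Control and 65.7, 65.1 and 55.1% in ESW, so the isoform shares overlapped although the gene's levels did not. Its mean level was 20.8 CPM in Control and 46.3 CPM in ESW. That of the other Myh1 transcript, NM_001135158.1, was 27.2 and 28.5 CPM, so the gene's rise lay in the former. Neither transcript was called. Hmox1 reads came mainly from NM_012580.2 in both groups, at 95.9 and 94.2%, and those of Gaa from XM_006247905.4 at 83.5 and 81.4%.

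A change of isoform shares within a gene was called in 15 of 8603 genes (0.174%), with 566 genes at an unadjusted p under 0.05. In 14 of the 15 the leading transcript was listed at 0 in every library of 1 group, 10 times in Control and 4 times in ESW, and each of the 10 was present in a CW library. The part that the division of reads among near-identical isoforms had in this pattern was not tested. Only Nrp2, a co-receptor of semaphorins and VEGF, did not rest on a 0, with 10.1, 9.64 and 5.23% against 3.36, 1.51 and 4.64% for XM_008767137.4. A repeat limited to transcripts with at least 5 reads in each Control and ESW library, added after the data were seen, called 5 genes: Nrp2, Nub1, Mme, Snx24 and Zbtb4. Snx24, a sorting nexin, had 5.25, 4.21 and 4.40% in Control and 37.0, 20.2 and 32.1% in ESW for XM_063277478.1 (adjusted p = 0.00512). Nub1, an inhibitor of NEDD8 conjugation, had 0.627, 0.679 and 0.476% against 3.81, 6.88 and 8.75% for XM_063285691.1, and Mme, the surface protease neprilysin, 9.48, 6.63 and 5.98% against 12.1, 18.6 and 12.7% for XM_063281293.1. In Zbtb4, a zinc finger gene, XM_006246844.4 took 0.892, 0.872 and 0.589% in Control and 6.72, 3.19 and 10.5% in ESW. The CW libraries had 7.83, 5.07 and 3.99% for the Nub1 transcript, as high as in ESW, and 5.35, 16.4 and 14.5% for that of Snx24, of which the first lay near Control. Only Nrp2 was called by both forms of the test.

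**Figure D5:**
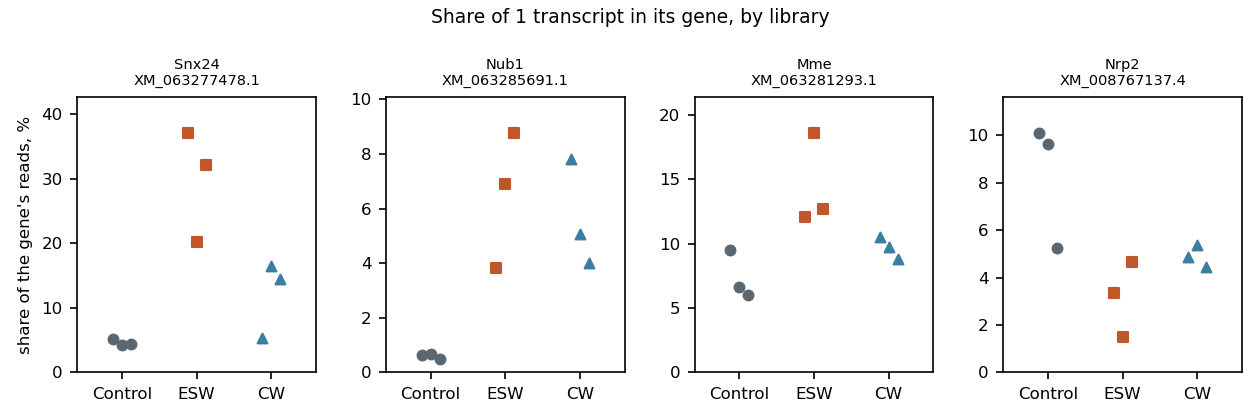
Share of 1 transcript in its gene's reads, in percent, for Snx24, Nub1, Mme and Nrp2 in the Control, ESW and CW libraries (1 point per library). The shares of the Snx24, Nub1 and Mme transcripts are higher in all ESW than in all Control libraries, that of Nrp2 is lower, and for Nub1 CW lies as high as ESW.

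The control water gives a second reference for the same ESW libraries. ESW against CW called 1197 genes (8.14%) and CW against Control 26 (0.177%), and since each pair of comparisons shares 3 libraries their calls are not independent. Of the 1183 genes called in ESW against Control, 618 were also called against CW and 10 in CW against Control. For Myh1 the CW levels were 55.3, 53.2 and 48.7 CPM, for Gaa 172, 166 and 167 CPM and for Tgfb1 97.8, 89.97 and 90.4 CPM, all below the lowest ESW library. For S100a6 they were 483, 604 and 605 CPM and for S100a10 235, 229.8 and 232 CPM, above the highest ESW library. In Ndufs7 (41.8, 43.9 and 48.4 CPM) and Ttn they reached into the ESW range.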

How the data were processed

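RNA-seq was measured in 9 libraries, of which the 3 Control and 3 ESW libraries were compared, grouped by their titles. The deposited estimated counts per RefSeq transcript came from Salmon 1.10.3, per the submitters' processing notes, which also name DESeq2 without a version. The deposited TPM values, abundances scaled by Salmon for transcript length and library total, were used only as a check of levels, and the deposited effective lengths served as an alternative offset. The transcript build, annotation release and Salmon options are not given in the sources used here. Each table held 114122 transcripts, and all of them were matched by accession to 36856 genes of a RefSeq table. Estimated counts were summed per gene and rounded. Totals ran from 26748673 to 48574618 over the 9 libraries. Genes with near-identical copies share reads by estimate, and the reads of overlapping or antisense genes may not be told apart, as the strand setting is among the options not stated.

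Genes were tested in edgeR 4.0.16 (R 4.3.3) by quasi-likelihood, after filterByExpr, with TMM scaling, Benjamini-Hochberg adjustment and a threshold of 0.05. All 9 libraries entered 1 model with 6 residual degrees of freedom, and the common biological coefficient of variation was 4.84%. A prior count of 2 was used for log2 CPM. Transcripts were tested alike, and isoform shares with edgeR's diffSpliceDGE. On simulated data the planned usage test called more unchanged genes than its threshold allows, whereas the version limited to transcripts with at least 5 reads in each Control and ESW library did not. Alternatives were a fit of 6 libraries, a replicate block, DESeq2 size factors, other filters, single libraries left out, length offsets, DESeq2 1.42.0, and voom and diffSplice of limma 3.58.1. Same-numbered Control and ESW libraries did not deviate together (r = -0.118, -0.0315 and -0.0742 across genes), so the numbers were not treated as pairs.

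The members and the 41 gene lists were chosen with earlier results of these data known. Named were 10 genes per direction by size of change (at least 10 CPM, groups not overlapping), the 6 smallest p-values, up to 4 called members per list by p, uncalled members with a defining role, and the leading changes of isoform share. Further called members of lists with 5 or fewer calls in a direction, Lamp1, Igf2r, Sod1, Sod2, Dysf, the lncRNAs and the isoforms of the added usage test were chosen after their values were seen. Genes with systematic names were counted, not named, and a few members that the rule selects are not reported here. Promoter windows came from RefSeq (GRCr8).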

Additional observations from a re-analysis of the deposited data

How the results depend on the processing

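The count of 1183 called genes was 1003 with only the 3 Control and 3 ESW libraries, 1207 with DESeq2 size factors, 1246 with a filter of 1 CPM in 3 libraries, 1530 with no filter, 1377 with DESeq2 and 1205 with limma-voom, but 440 with average effective length offsets. The split of higher and lower was 776 and 754 with no filter, 645 and 601 with 1 CPM in 3 libraries and 782 and 762 without Control replicate 1, against 700 and 483. Leaving out 1 library gave 394 to 1544, and the omission of Control replicate 2 (534), Control replicate 3 (590) or ESW replicate 3 (394) lowered the count by over 1.5 times. The count of 26 genes at 1 or more on the log2 scale became 85 with no filter, 8 with 1 CPM in 3 libraries, 10 with length offsets, 0 in DESeq2, which gave none of them an adjusted p, and 10 to 65 with 1 library left out. The count of 9 called transcripts became 0 with the 6 libraries or with DESeq2 size factors, 14 with no filter, 62 with 1 CPM in 3 libraries, 1899 in DESeq2, 54 in limma-voom, 42 with at least 5 reads per library and 0 to 3 with 1 library left out. The count of 15 genes with changed isoform shares became 43 with the 6 libraries, 34 with limma's diffSplice and 5 with at least 5 reads per library, and were 10 to 19 with 1 library left out. With the replicate block, genes numbered 971, those at 1 or more on the log2 scale 19, transcripts 0 and isoform shares 2, although the numbers do not pair the libraries. The cause of these differences was not tested. Among 171 named genes, 52 lost their call with length offsets, 48 without ESW replicate 3, 38 without Control replicate 2 and 33 without Control replicate 3, and Jund reversed with length offsets (-0.00116). At this depth genes under 1 CPM gave few calls.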

Other observations

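The heat shock element was searched in the same promoter windows on either strand, as 3 alternating GAA and TTC units with the spacing of the consensus. It was in 7 of 41 windows of cytosolic and mitochondrial chaperones (17.1%) and in 0.457% of all windows. The 7 genes were Cct4, Chordc1, Dnaja1, Hspa8, Hspd1, Hspe1 and Hsph1. Of these Hspe1 was called, and lower, while Hspb1, Hspb7 and Bag3, the higher chaperone genes named above, were not among the windows with the letters. The E-box letters of lysosomal genes were in 2 of 61 windows of cytosolic ribosomal proteins (3.28%), near the share of all windows.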
